A study of Mus musculus with 4 samples.

Results

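The regions described here are the H3K36me2 peaks on mouse chromosome 15, and in detail those in the gene desert around Myc and Pvt1. They were chosen by their chromosome in the deposited peak lists: 489 of 7699 peaks in the library from melatonin-treated cells and 538 of 8361 in the library from untreated cells. Of these, 82 and 111 had their midpoint between 61 and 64 Mb. The study mapped dimethylation of histone H3 at lysine 36 with ChIP-seq, the sequencing of DNA pulled down with an antibody to the mark, in mouse bone marrow mesenchymal stem cells, the cultured stromal progenitors of bone, fat and cartilage. One condition was 1 µM melatonin for 24 h and the other was no treatment. The protocol text names melatonin for every sample, so the groups follow each sample's own treatment label. The labels give no strain, age or number of animals for these libraries, and the series' design text speaks of cells from old donors and of age groups. Each condition had 1 ChIP library and 1 input library, so every difference below is between 2 libraries, has no replicate check and carries no p-value. The chromosome was chosen with its peak number known, so that number is given as a description.

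H3K36me2 is written by enzymes of the NSD family and by ASH1L, often as broad domains over intergenic sequence and gene bodies, and it is known to oppose the spread of the repressive mark H3K27me3. Myc encodes a transcription factor that drives growth and proliferation. Its gene is short and stands almost alone in a large stretch without other protein-coding genes, which in mouse and human holds distant enhancers that act on Myc in blood, facial and other cells. Pvt1, its neighbour, is a long noncoding RNA gene that is often rearranged or amplified together with Myc in tumours.

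Few peaks on the chromosome met an annotated promoter. Of 936 promoter windows on chromosome 15 (RefSeq, GRCm38.p6; 250 bases before to 50 after a gene's start), 2 overlapped a melatonin peak and 2 an untreated peak, or 0.214% in each list. Over all 32619 such windows of the lists' chromosomes the shares were 0.205% and 0.144%. The 3 windows that lay wholly or almost wholly inside a peak are printed here because they are the only peak sequence that the promoter table gives for this chromosome; capitals mark CG dinucleotides, the sites of DNA methylation, and each reads 5′ to 3′ on the gene's strand. The first is the only one in the Myc desert, at chr15:63718098-63718397 on the plus strand, inside a melatonin peak; the second, at chr15:6044655-6044954 on the minus strand, and the third, at chr15:11729569-11729868 on the minus strand, met untreated peaks.
4930449C09Rik: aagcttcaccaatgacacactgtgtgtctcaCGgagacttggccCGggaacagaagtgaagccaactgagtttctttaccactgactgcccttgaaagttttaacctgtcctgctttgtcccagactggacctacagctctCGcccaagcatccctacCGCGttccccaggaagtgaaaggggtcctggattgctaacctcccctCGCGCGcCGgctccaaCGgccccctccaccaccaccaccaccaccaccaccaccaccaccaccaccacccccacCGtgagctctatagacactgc
Gm41259: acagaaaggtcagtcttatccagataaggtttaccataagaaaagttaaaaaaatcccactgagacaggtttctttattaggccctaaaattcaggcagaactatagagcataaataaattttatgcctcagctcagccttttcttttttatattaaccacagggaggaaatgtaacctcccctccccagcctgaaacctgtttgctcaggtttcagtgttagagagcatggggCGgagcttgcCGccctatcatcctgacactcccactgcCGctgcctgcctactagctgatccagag
Gm34501: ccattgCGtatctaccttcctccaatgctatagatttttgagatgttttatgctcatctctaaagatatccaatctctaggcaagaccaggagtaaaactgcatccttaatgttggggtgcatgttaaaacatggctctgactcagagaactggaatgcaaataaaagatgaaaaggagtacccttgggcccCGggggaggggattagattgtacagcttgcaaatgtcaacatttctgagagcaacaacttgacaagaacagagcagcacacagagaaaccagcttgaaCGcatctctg

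All 3 belong to long noncoding RNA genes. The 4930449C09Rik window held 11 CG dinucleotides and 58.3% G and C, while Gm41259 and Gm34501 held 3 CG dinucleotides each, with 44.7% and 43.3% G and C. The median over the 936 windows of the chromosome was 7 CG dinucleotides and 54.0% G and C, and over the 12 windows between 61 and 64 Mb it was 2 and 41.3%. Their peaks were of ordinary strength, with 14.5, 15.2 and 12.5 normalised tags (ChIP tags scaled to a library of 10000000) and a fold over input of 5.94, 4.66 and 4.70. The medians of the chromosome's peaks were 13.4 normalised tags with melatonin and 13.6 without. The letters CACGTG, the motif that MYC and its partner MAX bind, read the same on both strands, and they were in none of the 3, against 7.20% of all windows. The fourth promoter window with a peak was that of Dab2, an endocytic adaptor gene, which a melatonin peak met by only 4 bases.

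Along the chromosome, peaks were crowded below 69 Mb and thin above it. Chromosome 15 ranked 3rd of 20 chromosomes in peaks per Mb in both lists, with densities of 4.71 (melatonin) and 5.18 (untreated), against 2.85 and 3.10 per Mb over the other chromosomes. In windows of 1 Mb, from the first window with a peak at 3 Mb on, the number of peaks ran from 0 to 38 with a median of 2 in the melatonin library, and from 0 to 43 with the same median without treatment. Below 69 Mb lay 417 (85.3%) of the melatonin peaks and 489 (90.9%) of the untreated ones, a boundary chosen after the values were seen. Above it, where the keratin and Hoxc gene clusters lie, there were 72 and 49 peaks.

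Of 101 windows, 66 held a peak in both lists, 18 in neither, 11 in the melatonin list alone and 6 in the untreated list alone. Windows without a peak numbered 24 of 101 with melatonin and 29 without. Over all chromosomes, with their first Mb included, they numbered 1048 and 1082 of 2641. The split by list and the correlation were not computed over all chromosomes, so they only describe chromosome 15. As a description, the counts of the 2 lists over these windows gave Pearson's r of 0.90 and Spearman's rho of 0.76, and r was 0.83 without the 3 windows of the Myc desert. The windows are neighbours on 1 chromosome and come from the same 2 libraries, so they are not independent points. The 16 windows with under 10% of their length in protein-coding genes included the fullest, with 38 and 43 peaks, but 8 of the 16 were empty in both lists.

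**Figure D1:**
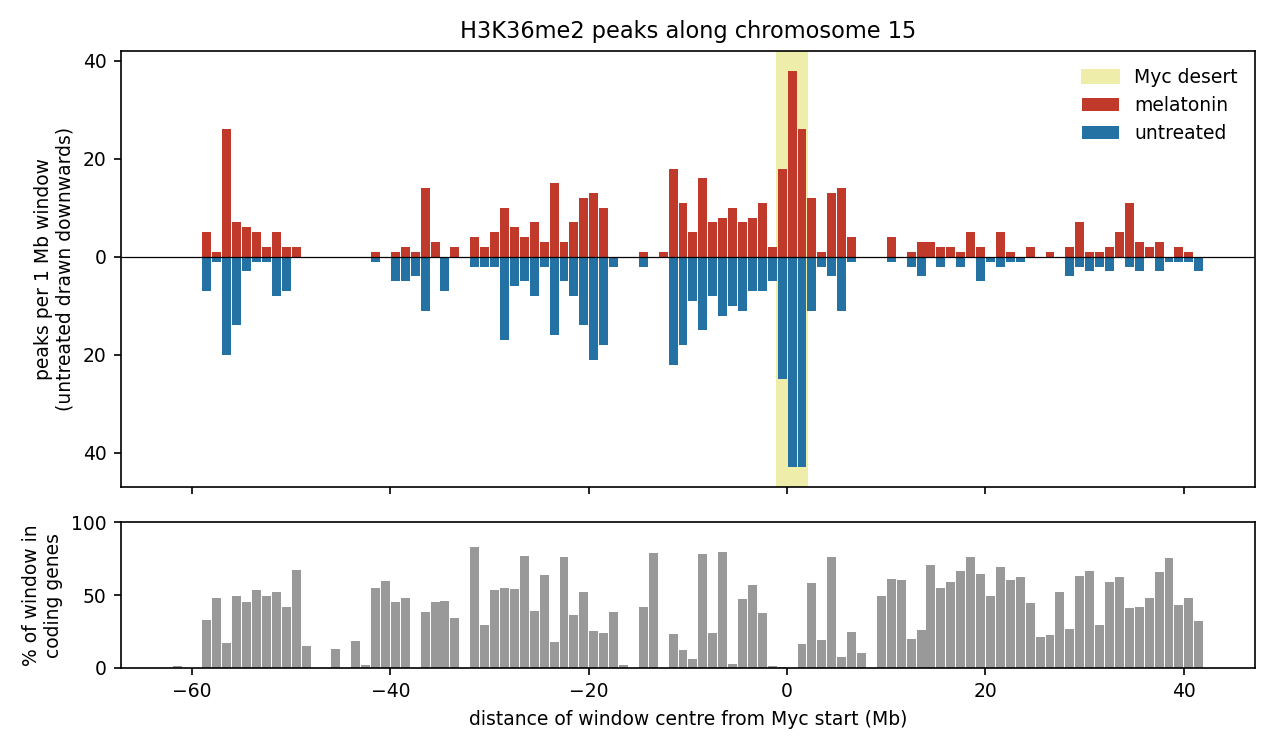
Peaks per 1 Mb window of chromosome 15 by distance from the Myc start in Mb, with melatonin bars upwards and untreated bars downwards, above the percentage of each window inside protein-coding genes. The shaded Myc desert holds the windows with 38 and 26 melatonin and 43 and 43 untreated peaks.

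The longest stretch without a peak in either library ran from 12107065 to 20707193, or 8600 kb, and it covers the type II cadherin genes Cdh6, Cdh9 and Cdh10, which encode cell adhesion molecules, and reaches into Cdh12. It holds 11 protein-coding genes. The next longest ran from 68944924 to 72784492 (3840 kb) over Khdrbs3, Fam135b, the collagen gene Col22a1 and the potassium channel gene Kcnk9. Another, from 44686915 to 47745860 (3059 kb), took in Kcnv1 and reached into Csmd3.

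The fullest windows differed in where their peaks lay. Between 62 and 63 Mb, just past Myc, the melatonin library had 38 peaks and the untreated library 43, which ranked it 3 among 2641 windows of the genome with melatonin and 5 without. Between 63 and 64 Mb there were 26 and 43 peaks, and between 61 and 62 Mb, which holds Myc itself, 18 and 25. Outside the desert, the window from 5 to 6 Mb near the prostaglandin receptor gene Ptger4 held 26 and 20 peaks and the window from 50 to 51 Mb near Trps1, a GATA-type repressor gene of skeletal development, held 18 and 22. In all 5 of these windows, no peak of either library lay in a protein-coding gene. Genes did hold the peaks elsewhere: from 53 to 54 Mb, 15 of the 16 melatonin peaks lay in Samd12 or Ext1, and from 42 to 43 Mb, 12 of the 21 untreated peaks lay in Angpt1.

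Windows that differed between the libraries were few. Among 30 windows of the chromosome with at least 10 peaks in the 2 lists together, the melatonin count was at least 2 times the untreated count in 2 (6.67%), and the reverse held in 1 (3.33%). Over all chromosomes, 8.26% and 16.3% of 557 such windows passed, so the chromosome 15 shares were at or below the background. The window from 66 to 67 Mb held 13 melatonin and 4 untreated peaks, a ratio of 3.25 (exact 95% interval 1.00 to 13.7), and 11 of the 13 lay in protein-coding genes. The window from 96 to 97 Mb held 11 and 2 peaks, a ratio of 5.50 (1.20 to 51.1), none of them in a protein-coding gene. From 6 to 7 Mb, around the complement gene C9 and Dab2, the counts were 7 and 14. Intervals here and below cover counting error only, and since peaks cluster and reads carry no molecular identifiers, they are too narrow. With windows that start at 0.5 Mb, 9 of 38 windows passed, so which windows pass rests on where they begin.

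**Figure D2:**
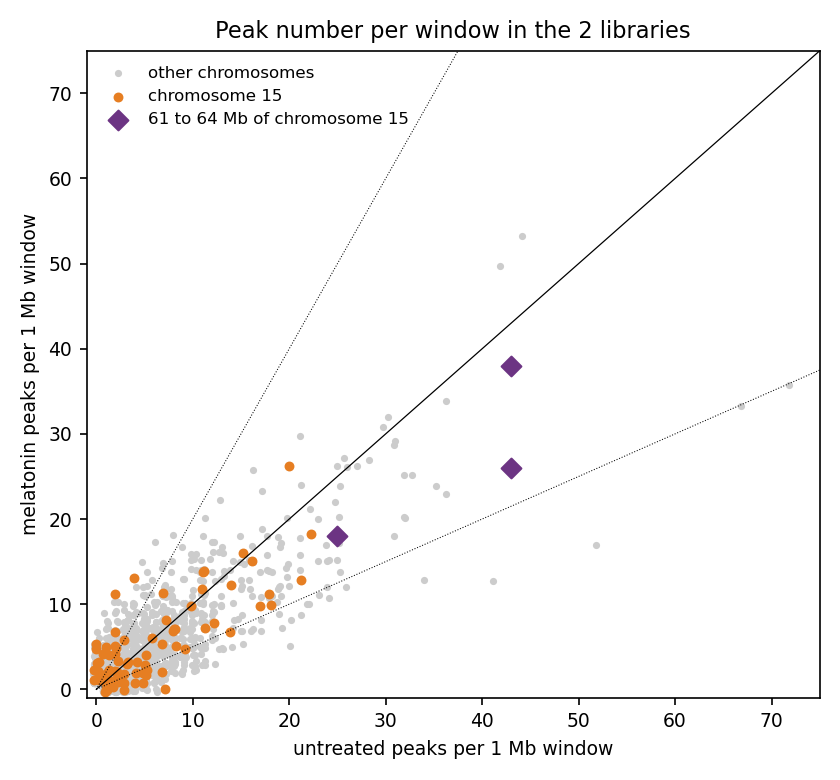
Melatonin against untreated peaks in each 1 Mb window that held a peak, with grey points for other chromosomes, orange points for chromosome 15 and diamonds for the 3 windows from 61 to 64 Mb; points other than diamonds are spread by a small random shift. The solid line marks equal counts, the dotted lines 2-fold differences, and all 3 diamonds lie between the solid line and the lower dotted line.

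The Myc desert was far denser in peaks than the rest of the chromosome. Its 3 Mb contained 27.3 peaks per Mb in the melatonin library (82 peaks, 95% Poisson interval 65.2 to 102) and 37.0 in the untreated library (111 peaks, 91.3 to 134), against 4.03 and 4.23 per Mb on the rest of the chromosome. It thus held 16.8% and 20.6% of the chromosome's peaks. Melatonin peaks divided by untreated peaks came to 0.739 (exact 95% interval 0.548 to 0.992) in the desert, 0.953 (0.830 to 1.09) on the rest of the chromosome and 0.922 (0.892 to 0.952) on the other chromosomes. The desert's interval included the ratio of the other chromosomes, so a lower ratio in the desert was not shown at this depth. By sequence covered, the peaks took up 2.92% of the desert with melatonin and 4.24% without, against 0.436% and 0.457% of the rest.

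Within the desert, the peaks flanked Myc and Pvt1 and did not enter them. Neither library had a peak in Myc (61985341 to 61990361) or anywhere in the 222 kb of Pvt1 (62037986 to 62260215). Myc spans only 5.02 kb, and over all chromosomes 5.54% and 5.27% of protein-coding genes had a peak in the body. The lack of a peak in Myc alone is thus near the background. The nearest melatonin peaks lay 35.9 kb below and 20.9 kb above Myc, and the nearest untreated peaks 87.1 kb below and 20.7 kb above. Beyond Pvt1, the next peak began 38.2 kb past its end with melatonin and 76.2 kb past it without. The stretch without a peak in either list ran from 62026475 to 62298389, or 272 kb, and so contained the whole of Pvt1. A peak list holds only regions past its thresholds, so methylation below them would not appear here.

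Both libraries had peaks in the 47.6 kb between Myc and Pvt1. At 62011222 to 62012222 the melatonin library had a peak with 12.7 normalised tags and 4.47-fold over input, and the untreated library had one at 62011076 to 62012076 with 14 tags and 7.90-fold. The second melatonin peak there, at 62014663 to 62015663, had 13.8 tags and 4.24-fold. The second untreated region, at 62023742 to 62026474, was the strongest and widest of the untreated library on the chromosome, with 2732 bp, 39.0 normalised tags and 4.55-fold over input, and ranked 7th by tags among all 8361. It ended 11.5 kb before Pvt1, and no melatonin region overlapped it.

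**Figure D3:**
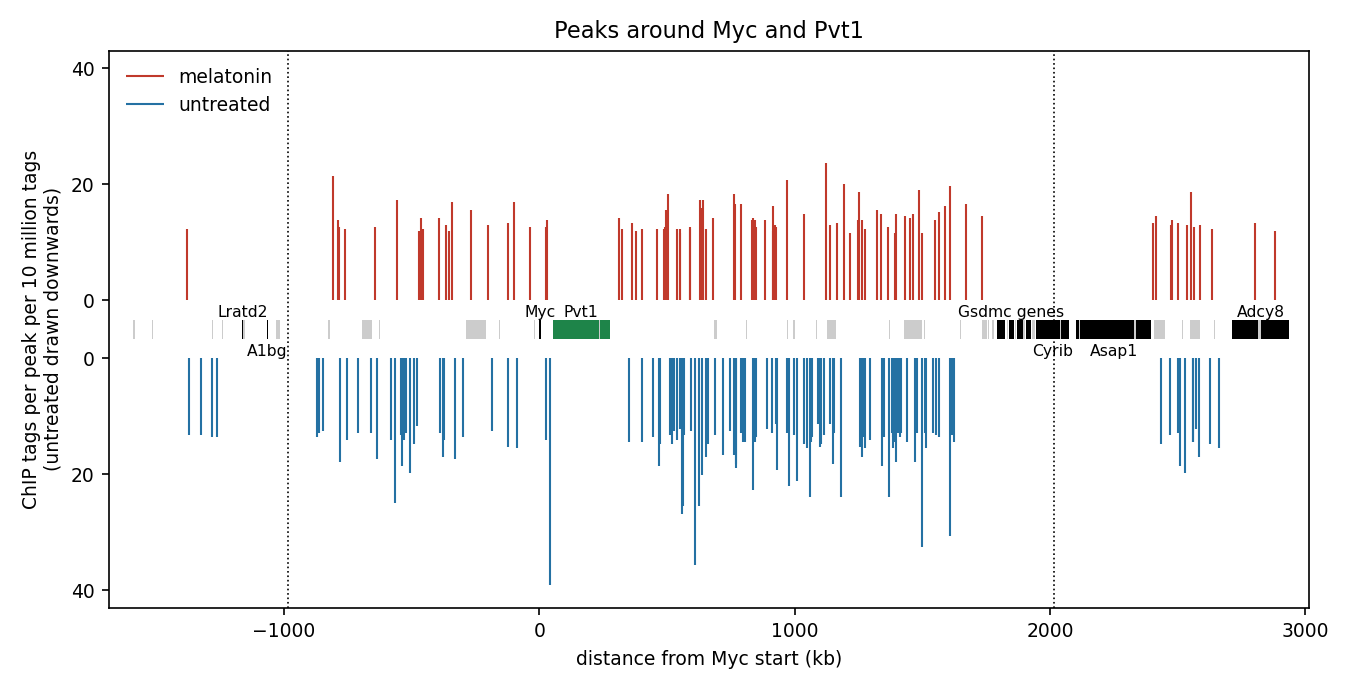
Peaks around Myc by distance from its start in kb, drawn as lines whose length is the peak's normalised ChIP tags, with melatonin upwards and untreated downwards; black blocks are protein-coding genes, the green block is Pvt1, grey blocks are other genes and dotted lines bound the desert. Lines are missing over Pvt1 and over the Gsdmc genes, Cyrib and Asap1, and the tallest line is the untreated region of 39.0 tags just before Pvt1.

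Over the whole desert, the 2 sides of Myc differed in density. From 61 Mb to Myc there were 18 melatonin peaks (18.3 per Mb) and 25 untreated peaks (25.4 per Mb). From Pvt1 to the first gasdermin gene, Gsdmc, there were 62 (40.9 per Mb) and 84 (55.4 per Mb), so both libraries were denser on the Pvt1 side. Near Myc the sides were about even: within 250 kb the melatonin library had 4 peaks below and 2 above the gene and the untreated library 3 and 2, and within 500 kb the counts were 12 and 13, and 10 and 7. Within 1000 kb they were 18 and 38 with melatonin, and 25 and 42 without. In bins of 100 kb, the desert ran from 0 to 7 melatonin peaks and from 0 to 11 untreated peaks. The largest differences between the libraries stood at 61.4 to 61.5 Mb, with 1 melatonin and 8 untreated peaks, at 63 to 63.1 Mb, with 1 and 8, at 62.7 to 62.8 Mb, with 3 and 9, and at 63.3 to 63.4 Mb, with 5 and 11; these bins were picked for their difference.

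Stretches without peaks bounded the desert's run of peaks in both libraries. On the lower side, no peak of either list lay between 60722331 and 61113260, a stretch of 391 kb that holds Lratd2 and A1bg. On the upper side, the last melatonin peak ended at 63718788 and the last untreated peak at 63610294. From there no peak was called until 64388880, a stretch of 670 kb over the pore-forming gasdermin genes Gsdmc, Gsdmc2, Gsdmc3 and Gsdmc4, the Rac1-binding gene Cyrib and the Arf regulator gene Asap1. Just beyond Asap1, both libraries had peaks again: in the next pair of 100 kb bins there were 4 and 4 with melatonin, and 4 and 5 without. The peaks just inside and just outside the bounds of 61 and 64 Mb had these normalised tags: with melatonin 12.3 outside and 21.5 inside at the lower bound, and 14.5 inside and 13.4 outside at the upper, and without treatment 13.6 outside and 13.6 inside, then 14.4 inside and 14.8 outside.

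The few desert peaks that met a gene lay in long noncoding RNA genes. The 6 protein-coding genes held none, which is a small number of genes to read against a background of 5.54% of all protein-coding genes with a melatonin peak in the body and 5.27% with an untreated one. Of 82 melatonin peaks, 0 overlapped a protein-coding gene (exact 95% interval 0 to 4.40%), and of 111 untreated peaks also 0 (0 to 3.27%). Peaks that touched no annotated gene at all numbered 74 (90.2%) and 100 (90.1%). Over all chromosomes, 55.2% and 57.4% of peaks lay in no gene and not within 2 kb of a protein-coding one. Protein-coding genes took up only 0.502%, 0% and 16.7% of the desert's 3 windows of 1 Mb. Of 12 long noncoding RNA genes, 5 had a melatonin peak and 6 an untreated peak, against 6.64% and 6.42% of 12697 such genes over all chromosomes. Since the region was chosen as a gene desert with many peaks, these counts only describe it. Gm20740 (63414397 to 63479608) held 4 peaks in each library, Gm30159 (63110465 to 63145446) held 1 and 3, and Gm30113 (62954216 to 62957872) held 1 and 1. D030024E09Rik and 4930449C09Rik held 1 melatonin peak each and no untreated peak, and Gm29904, Gm41333 and Gm41335 held 1 untreated peak each and no melatonin peak. The desert's pseudogenes and small RNA genes, such as Macroh2a3 inside Pvt1, had none.

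In the untreated library, desert peaks reached higher tag numbers than with melatonin, and the same held outside the desert. The highest were 34.9 untreated and 30.7 melatonin normalised tags on the rest of the chromosome, and 57.6 and 38.8 on the other chromosomes. The untreated desert peaks had a median of 14.4 normalised tags (quartiles 12.9 and 17.2), against 13.6 (12.9 and 15.2) on the rest of the chromosome. In the melatonin library the medians were 13.8 (12.4 and 15.5) and 13.4 (12.7 and 14.8). Regions wider than the minimum of 1000 bp made up 25.2% of the untreated desert peaks (exact 95% interval 17.5 to 34.4) and 19.5% of the melatonin ones (11.6 to 29.7), and these intervals overlap. The strongest melatonin region of the desert, at 63106695 to 63108243, had 23.6 tags and ranked 174th in its list. The untreated library had 11 desert regions above that, led by the one before Pvt1 and by 62595541 to 62597688, with 35.6 tags, and 63481969 to 63483551, with 32.6. Fold over input was close to the required 4 in both lists, with desert medians of 4.70 with melatonin and 4.70 without. Input tags in the desert peaks had a median of 3.5 per kb with melatonin and 3.9 per kb without, somewhat above the 3.0 and 3.5 per kb of the rest of the chromosome. Whether input or mappability had a part in the desert's peak number was not tested.

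A larger share of peaks met a peak of the other library in the desert than on the rest of the chromosome, and the desert also held more of the other library's peaks to meet. Of the 82 melatonin peaks, 20 (24.4%, exact 95% interval 15.6 to 35.1) met a region of the untreated list, as did 20 of 111 (18.0%, 11.4 to 26.4) in the other direction. On the rest of the chromosome the shares were 18 of 407 (4.42%, 2.64 to 6.90) and 18 of 427 (4.22%, 2.52 to 6.58), and over all chromosomes 6.12% and 5.6%. The intervals of the desert and of the rest do not overlap. There, 11 of 82 melatonin midpoints (13.4%) fell inside an untreated region, where such regions covered 4.24% of the sequence, and on the rest of the chromosome 9 of 407 (2.21%) did so, where they covered 0.457%. On the other chromosomes 251 of 7210 (3.48%) did so, where they covered 0.338%. Set against the sequence covered, the midpoint share was thus lowest in the desert and highest on the other chromosomes, and the part of peak density in the desert's overlap was not tested. Among the 18 windows of the genome with at least 25 peaks in each list, the overlap of melatonin peaks ran from 3.13% to 34.2%. The window from 62 to 63 Mb stood highest, with 13 of 38, and the window from 63 to 64 Mb ranked 5, with 7 of 26. Chromosomes 13 (5 to 6 Mb, 30.6%) and 10 (16 to 17 Mb, 30.3%) had windows close to the former, so a high overlap was not confined to the Myc desert.

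**Figure D4:**
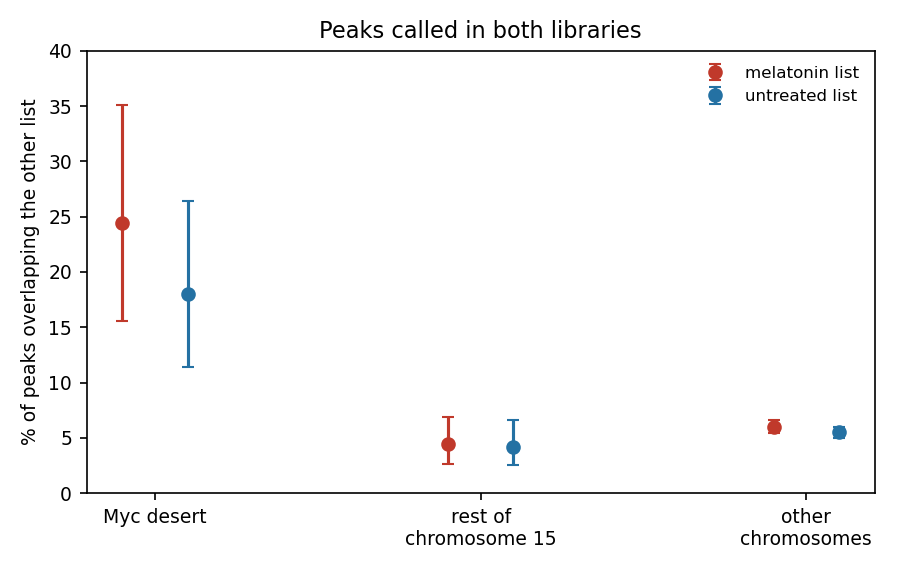
Percentage of each library's peaks that overlap a peak of the other library, in the Myc desert, on the rest of chromosome 15 and on the other chromosomes; bars are exact 95% binomial intervals. The desert points, 24.4% and 18.0%, stand above the others, which run from 4.22% to 6.01%.

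The 20 shared places of the desert lay on the Pvt1 side of Myc in every case. They ran from 26.4 kb to 1607 kb past the Myc start, and none was among the 18 melatonin and 25 untreated peaks below Myc. Over all chromosomes 6.12% and 5.6% of peaks met the other list, so 0 among so few peaks is near that background. In the desert as a whole the shares were higher, at 24.4% and 18.0%. Whether overlap differed between the sides of Myc was not tested. The stretch from Pvt1 to Gsdmc also held more peaks to meet, 62 with melatonin and 84 without. The nearest to Myc was the pair before Pvt1 given above. The pair of greatest combined strength was at 63591491 to 63592860 with melatonin (19.7 tags) and 63592618 to 63594587 without (30.7 tags). At 62622630 to 62623630 and 62622448 to 62623448 the tags were 15.9 and 20.1 and the folds 5.59 and 5.66. The shared length ran from 59 to 1000 bp with a median of 695.5 bp. Of the 16 melatonin desert peaks with a fold of at least 6, 2 met an untreated peak of any fold, and of the 20 untreated ones, 2 met a melatonin peak. The shared melatonin peak at 63482392 to 63483392 had a fold of 9.57 and the shared untreated peak at 62637665 to 62638922 a fold of 8.24. With that fold required of both members of a pair, 0 pairs were left.

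Protein-coding genes of chromosome 15 had peaks about as often as those of the genome. Of 776 genes, 60 (7.73%) had a peak with melatonin, inside the gene or within 2 kb, and 52 (6.70%) had an untreated peak, against a background of 6.01% and 5.78% of 21631 genes. In 31 genes both libraries had a peak, in 29 only the melatonin library and in 21 only the untreated one. The same split over all genes was not counted, so these numbers only describe the chromosome. Genes with a peak in both were long, with a median of 271 kb, against 15.3 kb for genes with none. Peaks lay in protein-coding bodies in 26.0% of cases with melatonin (exact 95% interval 22.1 to 30.1) and 21.4% without (18.0 to 25.1). On the other chromosomes the shares were 29.5% and 28.4%. The desert had no peak in such a body in either library. On the rest of chromosome 15 the shares were 31.2% (26.7 to 35.95) and 26.9% (22.8 to 31.4), and these intervals include the shares of the other chromosomes. A lower share was thus not shown outside the desert.

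The genes with most peaks were led by Samd12, a gene of little known function, with 14 melatonin and 12 untreated peaks over 503 kb. Cpq, a carboxypeptidase gene, had 5 and 14 peaks, Oxr1, an oxidative stress resistance gene, had 7 and 12, and Angpt1, which encodes the angiopoietin ligand of the TIE2 receptor, had 5 and 12. None of these gene counts differed beyond counting error, as the exact intervals of their ratios included 1. Tg, which encodes thyroglobulin, the precursor of thyroid hormone, had 10 melatonin and 2 untreated peaks, a ratio of 5 (1.07 to 46.9), and it was singled out among 776 genes by this rule of peak number. Sla, an adaptor gene of lymphocyte signalling that lies inside Tg, shares 5 and 1 of those peaks. Sntb1, a syntrophin gene, had 4 and 7 peaks, Zfpm2, a cofactor of GATA factors, 3 and 4, Ctnnd2, a delta catenin, 4 and 2, and Vps13b, a lipid transfer protein gene, 2 and 4.

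**Figure D5:**
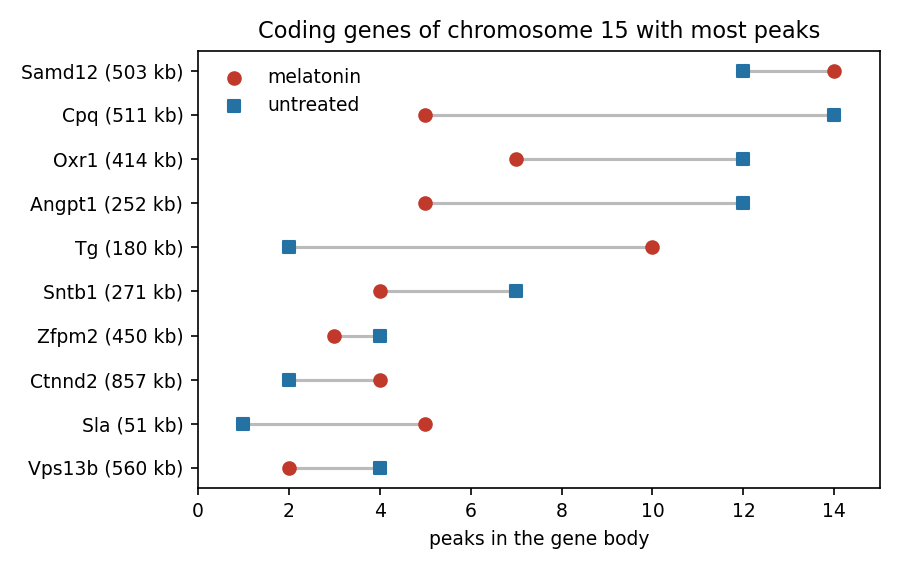
Number of peaks in the gene body for the 10 protein-coding genes of chromosome 15 with most peaks, circles for melatonin and squares for untreated, with gene length beside each name. Tg and Sla have more melatonin peaks, at 10 against 2 and 5 against 1, and Cpq, Oxr1 and Angpt1 have more untreated peaks.

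Among peaks in protein-coding genes that met no peak of the other library, the highest folds over input rested on few input tags. In the melatonin library they were 44.4 in Samd12, 39.1 in Ctnnd2 and 38.3 in Angpt1, each over 0.5 input tags, and 18.7 in the stretch shared by Tg and Sla, over 1 input tag. In the untreated library they were 46.1 in Zfpm2, over 0.4 input tags, 16.2 in Angpt1, 12.2 in the transporter gene Nipal2, and 10.9 in both Dmc1, a meiotic recombinase gene, and Pdzrn4. In the desert, outside protein-coding genes, the highest folds were 30.4 with melatonin, over 0.5 input tags at 62471211 to 62472211, and 21.8 without, over 0.8 input tags at 61121672 to 61122672. The ChIP tags of the peaks in genes, from 12.9 to 18.0 normalised tags, were ordinary for the lists. The libraries shared a place in 5 protein-coding genes: C9, Oxr1, Angpt1, Samd12 and the amino acid transporter gene Slc38a4. In Angpt1 the pair lay at 42549519 to 42550519 (fold 7.83) and 42549521 to 42550841 (fold 4.30).

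Of 24 bone and cartilage genes on the chromosome, 4 had a melatonin peak and 5 an untreated peak. These shares, 16.7% and 20.8%, stood above the 7.73% and 6.70% of all genes of the chromosome, and the list's median length of 30.5 kb exceeded the 18.2 kb of the chromosome's genes. The counts are small and carry no interval, and the part of gene length in them was not tested, so no enrichment is read from them. Ext1, which builds heparan sulfate, Deptor, an inhibitor of mTOR, and Matn2, a matrilin gene, had 1 peak in each library. Vdr, the vitamin D receptor gene, had 1 melatonin peak (fold 4.02) and no untreated one. Ghr, the growth hormone receptor gene, and Rspo2, which strengthens Wnt signals, had 1 untreated peak each (folds 5.29 and 4.84) and no melatonin one. Tnfrsf11b, which encodes the osteoclast inhibitor osteoprotegerin, had none, with the nearest 20.04 kb away with melatonin and 34.0 kb without, and Has2 and Trps1 also had none.

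None of 9 Hoxc genes, which set position along the body axis, and none of 16 keratin genes had a peak in either library, with the nearest to a Hoxc gene 873 kb away with melatonin and 217 kb without. With 7.73% and 6.70% of the chromosome's genes holding a peak, and those with a peak being longer than the rest in the median, 0 in lists of this size is near the background. Of 7 cell adhesion genes, namely cadherin family members and the delta catenin gene Ctnnd2, 2 had a melatonin peak and 3 an untreated peak. Cdh12 had 1 and 1, Ctnnd2 had 4 and 2, and Cdh18 had 0 and 3. The list's shares were 28.6% and 42.9%, and its median length was 197 kb. Of 13 synapse and channel genes, 3 had a peak in each library, namely Csmd3 (1 and 2), Rims2 (2 and 3) and Sema5a (3 and 1). That is 23.1% in each library, in a list with a median length of 128 kb. Both the adhesion and the synapse list stood above the 7.73% and 6.70% of all genes of the chromosome, whose median length was 18.2 kb. Their counts are small and carry no interval, and the part of gene length was not tested.

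Of 11 matched genes in or beside the desert, 2 (18.2%) had a melatonin peak and 0 an untreated peak, against 7.73% and 6.70% of the chromosome's genes. Those with a peak were Nsmce2, a gene of chromosome maintenance (fold 10.7), and Adcy8, an adenylyl cyclase gene, with 2 peaks. The list includes Gsdmc, Gsdmc2, Gsdmc3, Gsdmc4 and Cyrib, which lie wholly or partly inside the desert and were counted above among its genes without a peak. Counts of 2 and 0 among 11 genes are too small to set apart from the background. Trib1, a pseudokinase gene, lay 9.70 kb from the nearest melatonin peak and 42.5 kb from the nearest untreated one. Of 20 partners and targets of MYC on any chromosome, only Mxi1, an antagonist that binds MAX, had a melatonin peak (fold 10.7), and none had an untreated peak, while Max, Mycn and Npm1 had none in either. These shares, 5% and 0%, were near the background of 6.01% and 5.78% over all genes.

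H3K36me2 peaks do not measure expression, so they cannot check the labelled cell type. Of 10 marrow stromal genes, Nt5e had a peak in both libraries and Lepr in the untreated library alone, and Ly6a, the stromal and stem cell marker on chromosome 15, had none. Of 11 blood cell genes on the chromosome, Fyb, a lymphoid adaptor gene, had 1 untreated peak (fold 4.23), and the other 10, such as Il7r and Csf2rb, had none. At 6.01% and 5.78% of all genes with a peak, counts of 1 and 2 of 10 and of 0 and 1 of 11 are too small to set apart from the background.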

How the data were processed

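The authors deposited 1 peak list per ChIP library, made with HOMER findPeaks in histone style against the matched input, without pooling, as the file headers show. The headers give a tag threshold of 18 (melatonin) or 17 (untreated) for 1000 bp windows. They also require 4-fold over input and a Poisson p-value of at most 0.0001, and local filtering was off. Some listed regions have fewer deposited ChIP tags, such as 15.0 in the untreated peak at 63077738 to 63078738, so the threshold was not a floor on the deposited counts. The libraries held 14180076.5 and 13198427.5 tags, of which 1.12% and 1.24% lay in peaks, per the file headers. The normalized tag count is a deposited signal scaled to 10000000 tags, and ChIP and input tags are a deposited signal scaled to the shallower library. The fold is the authors' ratio of ChIP to input, the authors' p-value is unadjusted, and the findPeaks score was deposited too and not used. The region size is in bp. These values served to describe or filter peaks within a list. BWA 0.7.13, Picard 1.126, MACS2 2.1.0 and mm39 stand in the submitters' processing notes, whereas the headers name HOMER, with no version.

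On chromosome 3 a peak reaches 159805034 and on chromosome 7 one reaches 145328623, both past the mm39 chromosome lengths. Coordinates were therefore read as GRCm38 and printed as deposited. On chromosome 15 the share of midpoints in coding genes of the GRCm38.p6 RefSeq table was lowest at a shift of 0 kb among shifts of up to 1000 kb (25.8% and 21.4%). The shifts tried were 50 kb or more, so this share cannot tell the builds apart. The table gives no strand for genes, so "below" and "above" mean lower and higher coordinates. A genome sequence was not used here.

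Peaks were placed by midpoint in windows of 1 Mb, overlap meant 1 bp or more, and a gene had a peak when one met its body or 2 kb on either side; counts per gene use the body. Density was taken up to the last gene or peak of a chromosome. Intervals are exact 95% Poisson or binomial intervals and cover counting error only. Python 3.11.15, pandas, numpy and scipy were used, and the counting was tested on simulated lists. The members and gene lists were chosen with earlier results of these data known. Named genes are those of the desert, the 10 with most peaks, the 5 per list with the highest unshared fold, those with shared peaks and up to 4 list members with and 3 without a peak. In the list of genes in or beside the desert, 2 symbols had no match and 2 were older names of listed genes. Alternatives were stricter fold, p, list length and input limits, covered length, other overlap and gene rules, and shifted windows.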

Additional observations from a re-analysis of the deposited data

How the results depend on the processing

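Each condition had 1 library, so no library could be left out. No paired analysis was possible because each group has 1 sample and no test was made. Of 79 alternative values, 54 stayed within the counting interval or within 1.5 times the count and 25 did not; 71 were planned and 8, on overlap in the desert, were chosen after seeing the data. A fold of at least 6 left 131 melatonin and 117 untreated peaks on the chromosome, a ratio of 1.12, so the direction of the counts turned. The shares of the whole lists kept their order, at 5.65% and 5.80%, beside 6.35% and 6.43% as reported. This fold left 16 and 20 peaks in the desert. It gave an overlap of 0% in both lists, on the chromosome and in the desert, where both peaks of a pair had to pass. Keeping the 3849 lowest p-values of either list left 216 and 224 on the chromosome (5.61% and 5.82%), 33 and 55 in the desert, and 5.56% of melatonin peaks on the chromosome overlapping, with 10.9% of untreated peaks in the desert, where the melatonin share was 18.2%. These settings keep fewer peaks by construction. A reciprocal overlap of 50% gave 3.89% and 3.53% of the chromosome's peaks, and a gap of up to 1 kb gave 11.04% and 10.2%. Windows past a 2-fold difference numbered 9 from a start at 0.5 Mb and 1 with at least 20 peaks required; the cause was not tested. The desert's ratio ran from 0.600 to 0.800 over its alternatives. With thresholds of 18 and 17 tags in the headers, depth limits which weak regions are called.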
